A study of Mus musculus with 8 samples.

Results

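The genes described here are 34 immediate early and heat shock genes, taken by name from the 31053 rows of a single-cell RNA count matrix of mouse liver. They divide into 23 immediate early and 11 heat shock genes, and all 34 were found in the matrix. Their UMIs (unique molecular identifiers, each counting 1 captured transcript) were summed per library and per cell class, and a level in CPM is such a sum scaled to 1000000 UMIs. HFHC libraries 1 to 4 and control libraries 1 to 4 each came from 1 mouse, and per the labels all were male C57BL/6 mice. The labels state an age of 6 to 8 weeks, and feeding with either the HFHC diet or a chow control for 20 to 32 weeks. HFHC is spelled out with cholesterol in the design text and with calorie in the sample titles, and the title of HFHC 4 carries the animal number 14. No transgene or induced mutation is named for either group. Non-parenchymal liver cells were isolated, cleared of dead cells, stained for CD45, CD31, CD146 and PDPN, sorted and sequenced on the 10x Genomics platform.

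Immediate early genes are transcribed within minutes of a stimulus without needing new protein synthesis, and many encode transcription factors, such as the AP-1 proteins Fos and Jun, or proteins that shut the response down again. Heat shock genes encode chaperones that keep proteins folded, and the factor Hsf1 induces part of them by binding heat shock elements in their promoters. Both groups are known to be induced while a solid tissue such as liver is digested to single cells, which is why they serve as a measure of dissociation stress. All cells here were dissociated and no undissociated liver was measured, so induction in the animal and induction during isolation cannot be told apart.

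Some of the libraries stood apart. HFHC 1 to 4 kept 47, 74, 857 and 616 cells, and control 1 to 4 kept 55, 875, 574 and 94 cells, with 170448 to 2309209 UMIs per library. HFHC 1, HFHC 2, HFHC 3, control 1 and control 2 shared 33 to 65 cell barcodes in each pair, and the other pairs shared at most 4. A barcode seen in several libraries was therefore kept in the one with its highest UMI total, and 224 of 3416 cells were removed as copies. Hepatocyte-like cells made up 645 cells of HFHC 3 and 676 of control 2, although the labels call the cells stromal, and LSEC-like cells (liver sinusoidal endothelial cells) made up 547 cells of HFHC 4 and 550 of control 3. The median share of mitochondrial UMIs per cell was 0.0631% in HFHC 3 and 5.601% in control 2. Xist, which silences an X chromosome in females, was found in 71.3% of the cells of the library labelled control 4 and in none of the other 7 libraries, which goes against its male label. In these sums, fewer cells of a type and less RNA per cell cannot be told apart.

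Promoter sequences are shown for 6 members that carry the contrasts below, since heat shock elements set the heat shock members apart in sequence. The sequences are the 250 bases before the transcript start in RefSeq, build GRCm38.p6, and 29 of the 34 members had an entry. An inverted pair of heat shock units, spelled GAANNTTC or TTCNNGAA and searched on both strands, occurred in 7 of the 8 heat shock members with an entry (Hspa1a, Hspa1b, Hsph1, Hspb1, Dnaja1, Hspe1 and Hspd1). It occurred in 3 of the 21 immediate early members with an entry (Fosl2, Jun and Egr2), and in 14.5% of all 27025 genes with an entry. The 2 spellings can overlap. The cyclic AMP response element TGACGTCA occurred in Maff, Btg2 and Dusp1 against 1.77% of genes, the CArG box, to which serum response factor binds, in Egr2 and Zfp36 against 1.62%, and TATAAA in Fos, Btg1 and Zfp36l1 against 14.3%. The AP-1 site TGAGTCA occurred in none of the 29 members and in 5.16% of genes. A match describes these letters in this window and does not show that a factor bound there. Capitals mark the heat shock element in the first 4 sequences, TATAAA in Fos and TGACGTCA in Dusp1. Hspa1a lies at chr17:34972157-34972406 (minus strand), Hspa1b at chr17:34959239-34959488 (minus), Hspe1 at chr1:55087898-55088147 (plus), Hspb1 at chr5:135887669-135887918 (plus), Fos at chr12:85473640-85473889 (plus) and Dusp1 at chr17:26508473-26508722 (minus).
Hspa1a: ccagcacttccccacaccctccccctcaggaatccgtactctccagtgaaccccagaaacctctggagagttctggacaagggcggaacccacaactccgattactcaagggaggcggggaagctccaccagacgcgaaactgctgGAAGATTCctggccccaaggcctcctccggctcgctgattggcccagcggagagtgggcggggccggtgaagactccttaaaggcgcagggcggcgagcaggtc
Hspa1b: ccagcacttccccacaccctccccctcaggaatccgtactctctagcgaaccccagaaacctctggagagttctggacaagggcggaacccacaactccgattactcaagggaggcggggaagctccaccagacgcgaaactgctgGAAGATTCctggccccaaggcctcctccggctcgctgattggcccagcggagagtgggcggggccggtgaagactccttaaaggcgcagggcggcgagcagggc
Hspe1: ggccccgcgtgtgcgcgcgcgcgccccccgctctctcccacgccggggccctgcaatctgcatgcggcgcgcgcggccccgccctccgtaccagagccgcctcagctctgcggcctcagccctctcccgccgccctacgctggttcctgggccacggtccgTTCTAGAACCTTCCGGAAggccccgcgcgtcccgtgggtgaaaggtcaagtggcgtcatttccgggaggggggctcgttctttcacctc
Hspb1: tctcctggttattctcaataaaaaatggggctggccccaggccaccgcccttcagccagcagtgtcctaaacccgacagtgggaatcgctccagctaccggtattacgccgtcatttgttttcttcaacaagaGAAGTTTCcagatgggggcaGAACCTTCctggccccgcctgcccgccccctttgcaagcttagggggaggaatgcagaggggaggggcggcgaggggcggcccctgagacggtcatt
Fos: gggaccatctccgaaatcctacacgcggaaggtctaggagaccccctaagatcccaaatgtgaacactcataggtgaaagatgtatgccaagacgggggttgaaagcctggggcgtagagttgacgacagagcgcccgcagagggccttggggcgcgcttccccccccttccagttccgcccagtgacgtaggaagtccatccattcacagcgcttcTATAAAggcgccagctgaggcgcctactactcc
Dusp1: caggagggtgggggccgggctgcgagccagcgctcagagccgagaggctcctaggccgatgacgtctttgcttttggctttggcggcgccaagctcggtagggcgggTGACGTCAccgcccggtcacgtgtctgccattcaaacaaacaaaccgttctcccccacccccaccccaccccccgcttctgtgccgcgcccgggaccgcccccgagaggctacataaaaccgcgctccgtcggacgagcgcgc
Hspa1a and Hspa1b, both inducible cytosolic chaperones, were identical at 247 of these 250 bases (98.8%). Their transcripts are also nearly identical, so how reads were divided between them is uncertain, and their values are given with that limit. Hspe1 carried 3 overlapping matches, beginning 89, 84 and 79 bases before the start.

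Across all cells, the summed level of the members varied widely between mice of the same diet. The 23 immediate early members held 48.4, 92.4, 36.8 and 23.3 UMIs per 10000 in HFHC 1 to 4, and 63.1, 31.9, 15.96 and 50.7 in control 1 to 4. The means were 50.2 ± 29.9 for HFHC and 40.4 ± 20.7 for control (SD, n = 4 each). The 11 heat shock members held 53.3, 58.9, 57.7 and 28.5 UMIs per 10000 in HFHC 1 to 4, and 52.0, 44.8, 18.0 and 52.7 in control 1 to 4, with means of 49.6 ± 14.3 and 41.9 ± 16.3 (SD, n = 4 each). HFHC and control mice overlapped in both sums, and the difference of the means was below the SD within a diet. HFHC 4 and control 3, the libraries made up mostly of LSEC-like cells, were the lowest of their diet in both sums.

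**Figure D1:**
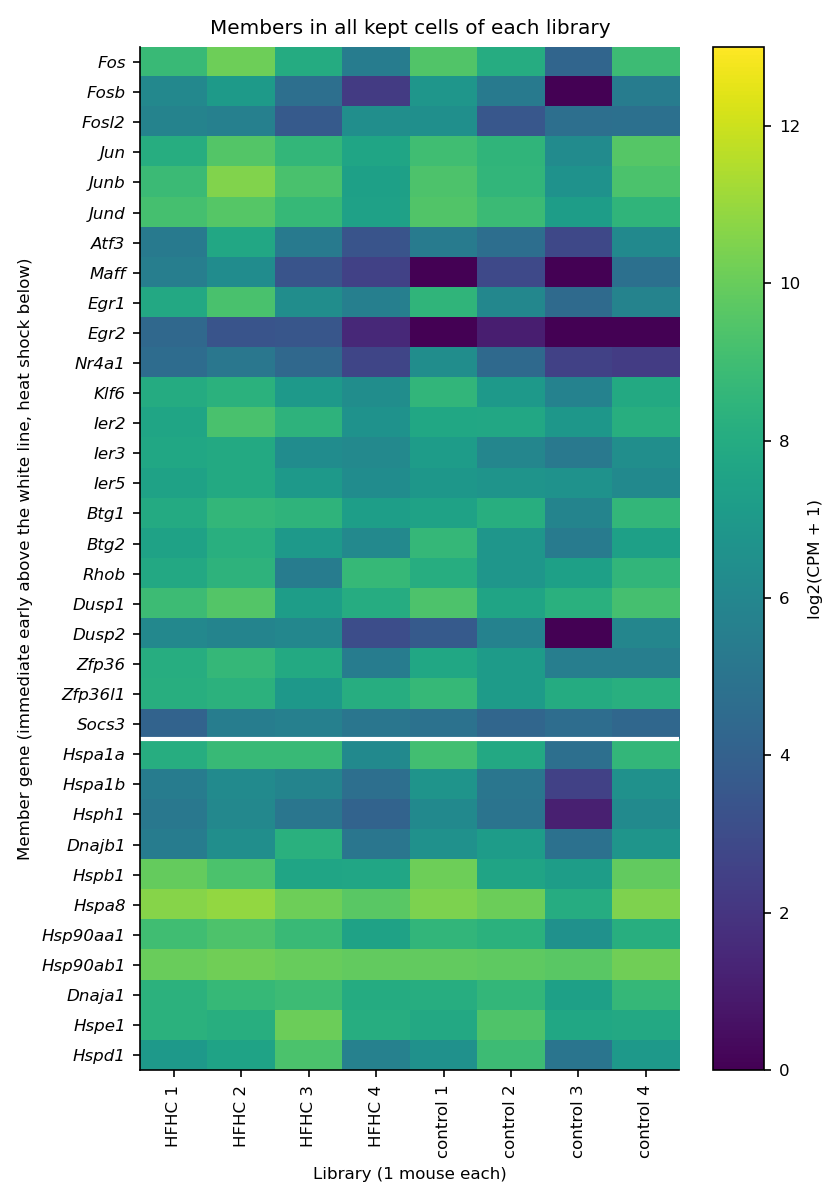
Level of each of the 34 members (rows) in all kept cells of each library (columns, HFHC left of control), as log2(CPM + 1), with immediate early members above the white line and heat shock members below it. The columns of HFHC 4 and control 3 are darker than the rest for most members, and HFHC 2 is the brightest for many immediate early members.

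Among the AP-1 and related factors, which bind DNA as leucine zipper dimers, Fos ranged most widely. It had 441, 1109, 252 and 43.6 CPM in HFHC 1 to 4, and 709.9, 266, 17.9 and 486 in control 1 to 4. The highest library was 61.8-fold above the lowest, and the diets overlapped throughout. Junb, a Jun protein that dimerises with Fos, had 464, 1487, 605 and 167 CPM in HFHC 1 to 4, and 663, 377, 96.9 and 637 in control 1 to 4. Its order of libraries was much like that of Fos, with HFHC 2 highest and control 3 lowest. Jun ran from 76.6 in control 3 to 769 in control 4, and Jund from 149.5 in control 3 to 753 in HFHC 2. Atf3, a stress-induced repressor of the same superfamily, had 39.5, 217, 39.8 and 9.27 CPM in HFHC 1 to 4 and 41.1, 24.8, 5.98 and 69.9 in control 1 to 4. Fosb, Fosl2 and the small Maf protein gene Maff were low, at most 132, 88.0 and 78.8 CPM in any library.

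Of the zinc finger and orphan receptor factors, Egr1, a growth factor-induced activator, had 227, 611, 82.3 and 48.2 CPM in HFHC 1 to 4, and 364, 63.6, 21.5 and 54.4 in control 1 to 4. Klf6, a Krüppel-like factor, ran from 53.8 in control 3 to 375 in control 1. Nr4a1, an orphan nuclear receptor, ran from 3.89 in control 4 to 82.1 in control 1. Egr2 gave only 36 UMIs in all libraries together, and HFHC 1 to 4 held 19.7, 9.45, 9.96 and 1.85 CPM against 1.13 in control 2 and none in the other controls. It was too rare to be tested.

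The other early response genes also varied between libraries, from a 3.42-fold range for Ier5 to 9.67-fold for Btg2 and Rhob. Ier2 ran from 99.2 CPM in HFHC 4 to 621 in HFHC 2, Ier3 from 37.1 in control 3 to 233 in HFHC 2, and Ier5 from 69.9 in control 4 to 239.5 in HFHC 2. The antiproliferative genes Btg1 and Btg2 were lowest in control 3, at 57.4 and 41.9 CPM, and highest in control 4 (389) for Btg1 and in control 1 (405) for Btg2. HFHC and control libraries overlapped for all of these genes.

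The feedback inhibitors did not follow one order of libraries. Dusp1, a phosphatase that switches off MAP kinases, had 474, 744, 149 and 259.5 CPM in HFHC 1 to 4, and 657, 189, 306 and 563 in control 1 to 4. HFHC 3 and control 2, the libraries made up mostly of hepatocyte-like cells, were the lowest for Dusp1, not HFHC 4 and control 3. The same pair was lowest for Zfp36l1, which encodes a protein that destabilises AU-rich transcripts, at 120.0 CPM in HFHC 3 and 137 in control 2. Zfp36, encoding the related protein tristetraprolin, had 273, 400.2, 234 and 43.6 CPM in HFHC 1 to 4, and 211, 141, 45.5 and 46.6 in control 1 to 4. Socs3, an inhibitor of cytokine signalling, stayed between 16.4 and 48.9 in all 8 libraries, and Dusp2, another phosphatase of MAP kinases, ran from 0 in control 3 to 65.8 in HFHC 1. Rhob, a small GTPase gene that belongs to the other early response genes above, was highest in HFHC 4 at 419 CPM and lowest in HFHC 3 at 43.3.

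The range over the libraries differed among the heat shock members, and of those with values given here it was narrowest for Hsp90ab1. Hspa1a had 276, 435, 427 and 71.4 CPM in HFHC 1 to 4, and 528, 225, 26.3 and 389 in control 1 to 4, a 20.1-fold range over the libraries. Its near copy Hspa1b had 42.8, 72.5, 57.6 and 26.0 CPM in HFHC 1 to 4, and 106, 33.8, 4.78 and 93.3 in control 1 to 4. Hsph1, which recharges these chaperones, ran from 1.20 CPM in control 3 to 73.8 in control 4, Dnajb1 from 27.5 in control 3 to 309 in HFHC 3, and Hspb1 from 152 in control 3 to 1121 in control 1. Control 3 was thus the lowest library for each inducible gene, while the highest differed from gene to gene. Hsp90ab1, a constitutively expressed cytosolic chaperone, had 1052, 1172, 995 and 928 CPM in HFHC 1 to 4, and 945, 885, 817 and 1173 in control 1 to 4, a 1.44-fold range. Hspa8, the constitutive relative of Hspa1a, had 1605, 1900.3, 1112 and 805 CPM in HFHC 1 to 4, and 1367, 1096, 266 and 1438 in control 1 to 4, a 7.16-fold range. Hsp90aa1 ran from 93.3 CPM in control 3 to 652 in HFHC 2, and the cochaperone gene Dnaja1 from 167 in control 3 to 473 in HFHC 3. Hspe1, which encodes the small partner of the mitochondrial chaperonin, had 316, 287, 1081 and 277 CPM in HFHC 1 to 4, and 229, 689, 215 and 225 in control 1 to 4. Hspd1, the chaperonin itself, had 125, 183, 629 and 51.9 in HFHC 1 to 4, and 93.9, 479.7, 32.3 and 132 in control 1 to 4. Both mitochondrial genes were thus highest in HFHC 3 and control 2, and both were also highest in hepatocyte-like cells, as given below. They lie head to head on opposite strands, Hspd1 at chr1:55077835-55088243 and Hspe1 at chr1:55088132-55091307 (mm10), and their annotated ends overlap, so reads in the overlap are uncertain.

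The order of the libraries can be given as ranks. The ranks and spreads in this paragraph use CPM after TMM scaling, which adjusts library totals for composition. Such ranks can differ from those of the unscaled CPM printed above. By unscaled CPM, Hsp90ab1 and Hsph1 were highest in control 4, which after scaling was the highest library for 0 heat shock members. On the scaled values, control 3 was the lowest of the 8 libraries for 24 of the 32 members that passed the filter on low counts. These included all 11 heat shock members, while control 3 was the lowest for 732 of all 6666 genes that passed. HFHC 2 was the highest library for 12 members, 11 of them immediate early, HFHC 3 for 10, 7 of them heat shock, and control 1 for 8. Of all 6666 genes, HFHC 2 was the highest for 853, HFHC 3 for 1772 and control 1 for 799. The share of HFHC 3 was thus similar for the members (31.2%) and for all genes (26.6%). It was 63.6% for the heat shock and 14.3% for the immediate early members. The median SD within a diet on the log2(CPM + 1) scale was 1.14 for the members and 0.77 for all 6666 genes. The difference between a gene's diet means was above that gene's own SD within a diet for 2 of the 32 members, and for 1010 of the 6666 genes.

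The test of all cells summed called no member changed with the HFHC diet. By edgeR's quasi-likelihood test with Benjamini-Hochberg adjustment over all genes, 0 of 32 members were called, and 0% of the 6666 genes. DESeq2 also called 0 members and 0% of genes. Unadjusted p was under 0.05 for 0 members, against 54 of the 6666 genes by edgeR and 126 by DESeq2. The median log2 fold change of the members, HFHC over control, was 0.34, against 0.055 for all genes tested, and 24 of the 32 were above 0. The smallest unadjusted p was that of Socs3 at 0.119, with a log2 fold change of 0.80 (SE 0.46). Zfp36 had a log2 fold change of 1.08 (SE 0.77), Ier3, an early response gene linked to cell survival, 0.85 (SE 0.55), Hspa8 0.38 (SE 0.56) and Fos 0.30 (SE 1.06). The sign for Fos turned when HFHC 2 (-0.49) or control 3 (-0.11) was left out. Within the 5 barcode-sharing libraries Fos had a log2 fold change of 0.17, and within HFHC 4, control 3 and control 4 one of -2.43. On simulated counts of this layout the test recovered 2% of 2-fold changes, 10% of those of 4-fold and 34% of those of 8-fold. Of 16-fold changes it recovered 52%. Most changes of up to 8-fold would thus be missed at this depth and spread.

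**Figure D2:**
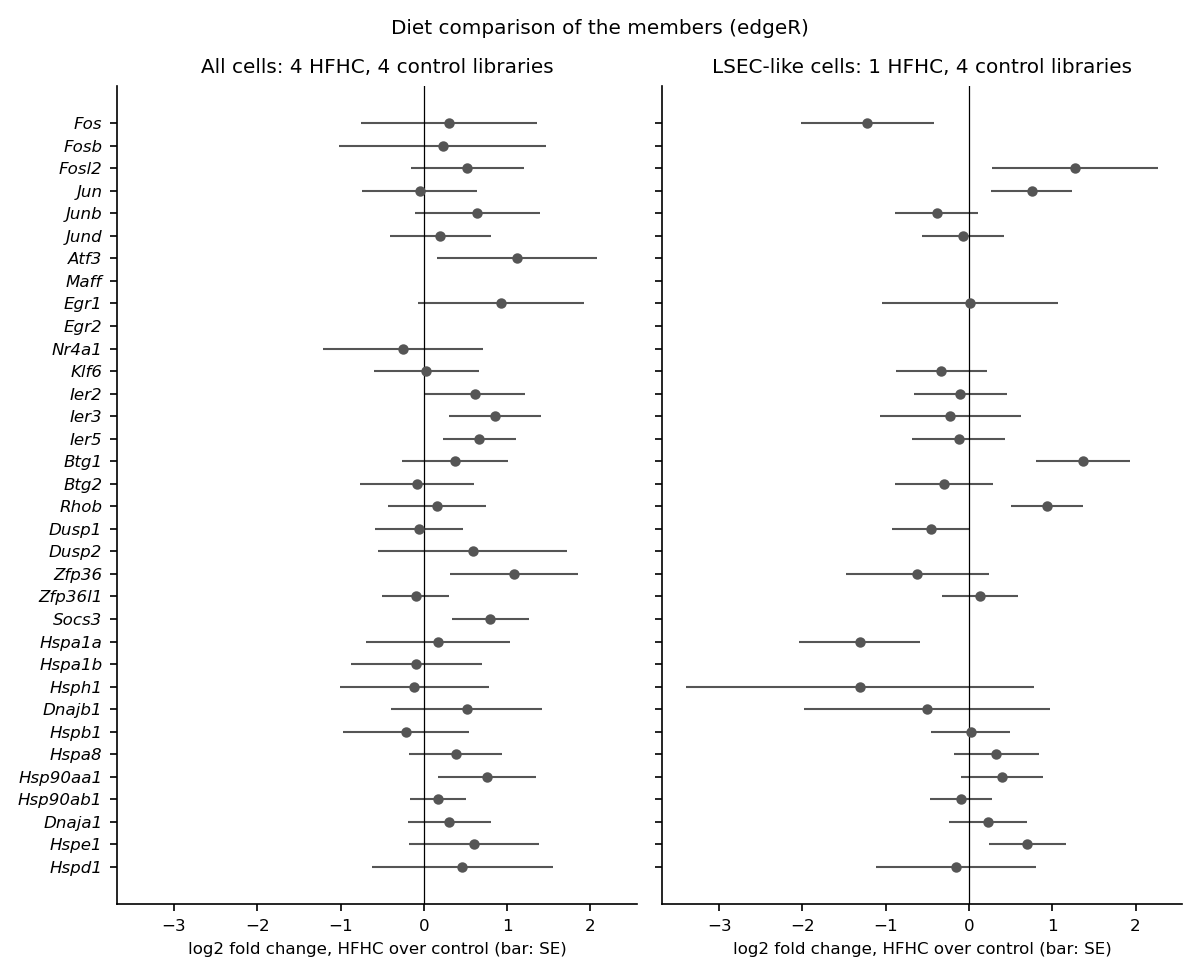
Log2 fold change of each tested member, HFHC over control, with its SE as a bar, in all cells (4 HFHC and 4 control libraries, left) and in LSEC-like cells (1 HFHC and 4 control libraries, right). None passed the test, and members with no point did not pass the filter on low counts.

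The levels of the members also varied with cell class. Cells were assigned to 12 classes by marker genes, none of which is a member, and 197 of the 3192 kept cells were left unassigned. No class had markers of another class among its 10 leading genes. The assignment used these same markers, so this was largely set in advance and does not show that the classes were pure. Hepatocyte-like cells of control 2 held 173 UMIs of haemoglobin genes per 10000, with a median of 0 per cell, against 1.09 in those of HFHC 3. The classes were unevenly spread over the libraries, and 23 pairs of a class and a library had at least 10 cells. Most classes reached this in 1 or 2 libraries, so their levels are described here without a test. Of the 23 immediate early members, 11 had their highest level in basophil or mast-like cells and 7 in neutrophil-like cells. The share of all genes that were highest in these classes was not determined. The neutrophil-like levels came from 16 cells of HFHC 3 with 15677 UMIs, where 3 counts correspond to 191 CPM. Fosl2, at 128 CPM, lay below that limit, and Atf3 (383) and Socs3 (510) were not far above it. The 11 heat shock members had their highest levels spread over 6 classes.

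**Figure D3:**
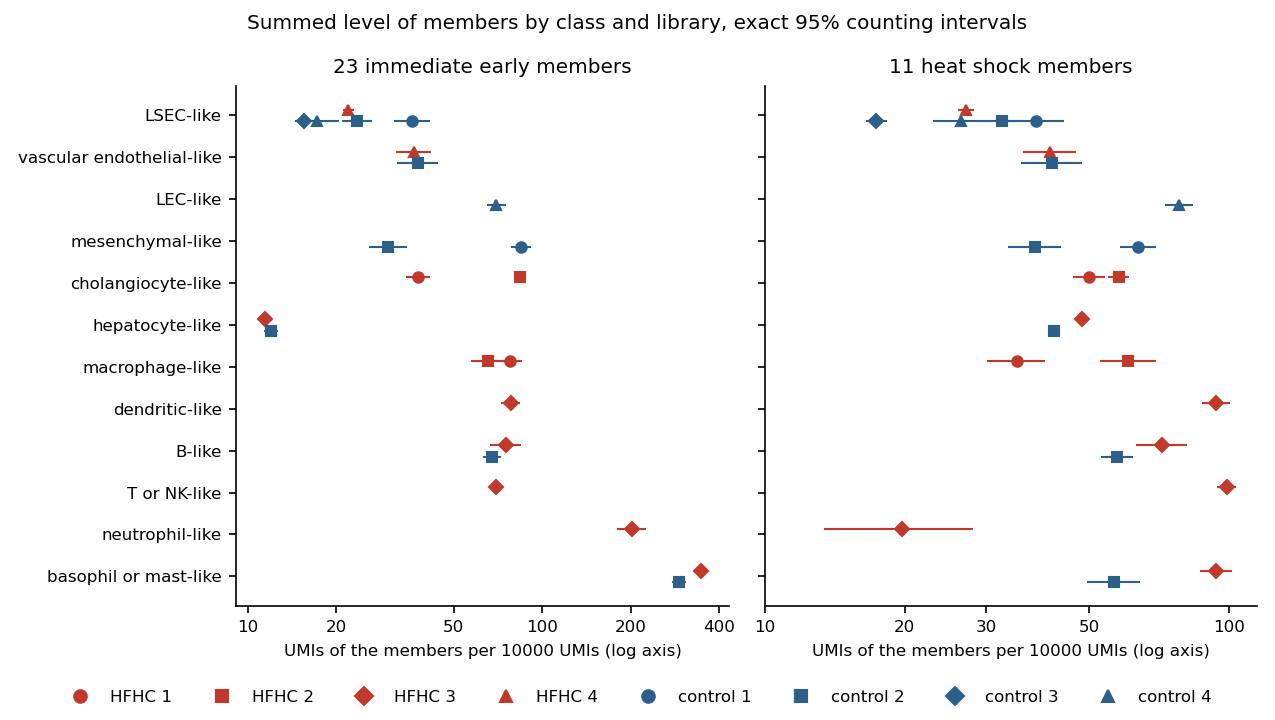
Summed level of the immediate early members (left) and heat shock members (right) in each class and library with at least 10 cells, in UMIs per 10000 UMIs on a log axis, with exact 95% counting intervals that hold no spread between mice. Hepatocyte-like and LSEC-like cells lie at the low end for immediate early members, and basophil or mast-like and neutrophil-like cells at the high end, while neutrophil-like cells lie at the low end for heat shock members.

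Basophil or mast-like cells carried 346 UMIs of immediate early members per 10000 in HFHC 3 (26 cells) and 292 in control 2 (16 cells). Hepatocyte-like cells of the same libraries carried 11.4 in HFHC 3 and 12.0 in control 2. The order of these classes was thus the same in an HFHC and a control library, both of which belong to the 5 barcode-sharing libraries. Junb reached 8667 CPM in basophil or mast-like cells of HFHC 3 and 5866 in those of control 2, and Jun reached 6071 and 5965. Ier2, an early response gene of unsettled function, had 5396 CPM there in HFHC 3 and 3688 in control 2, and Zfp36 had 3402 in HFHC 3 and 1931 in control 2. In hepatocyte-like cells Junb had 88.7 CPM in HFHC 3 and 75.2 in control 2.

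Neutrophil-like cells of HFHC 3 (16 cells) had a profile of their own. Their immediate early members summed to 202 UMIs per 10000, with 4656 CPM of Junb, 2424 of Btg1, an antiproliferative gene, and 1722 of Fos, but only 63.8 of Jun. Their heat shock members summed to 19.8 UMIs per 10000, the lowest of the classes outside LSEC-like cells, and Hspa1a, Hspb1 and Hspd1 were not detected in 15677 UMIs, which allows up to 191 CPM. High immediate early and low heat shock levels were found here in the same cells, so the 2 groups of members did not move as 1 measure over classes.

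The inducible chaperone Hspa1a was highest in immune classes, at 2117 CPM in dendritic-like and 1643 in T or NK-like cells of HFHC 3, and in B-like cells at 939.9 in HFHC 3 and 1175 in control 2. It had 499 CPM in basophil or mast-like cells of HFHC 3 and none in those of control 2, where 40400 UMIs allow up to 74.3. Dnajb1, which encodes a cochaperone that activates it, differed from it in these cells, with 3637 CPM in basophil or mast-like cells of HFHC 3 and 1361 in those of control 2. Hspb1, a small heat shock protein that protects the cytoskeleton, was instead highest in structural cells. It had 2036 CPM in mesenchymal-like cells of control 1 and 1465 in LEC-like cells (lymphatic endothelial) of control 4, against 11.4 in T or NK-like cells and none in dendritic-like cells of HFHC 3, where 85009 UMIs allow up to 35.3. Hspe1 and Hspd1 were highest in hepatocyte-like cells, with 1287 CPM of Hspe1 in HFHC 3 and 875 in control 2, and 812 of Hspd1 in HFHC 3 and 665 in control 2.

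**Figure D4:**
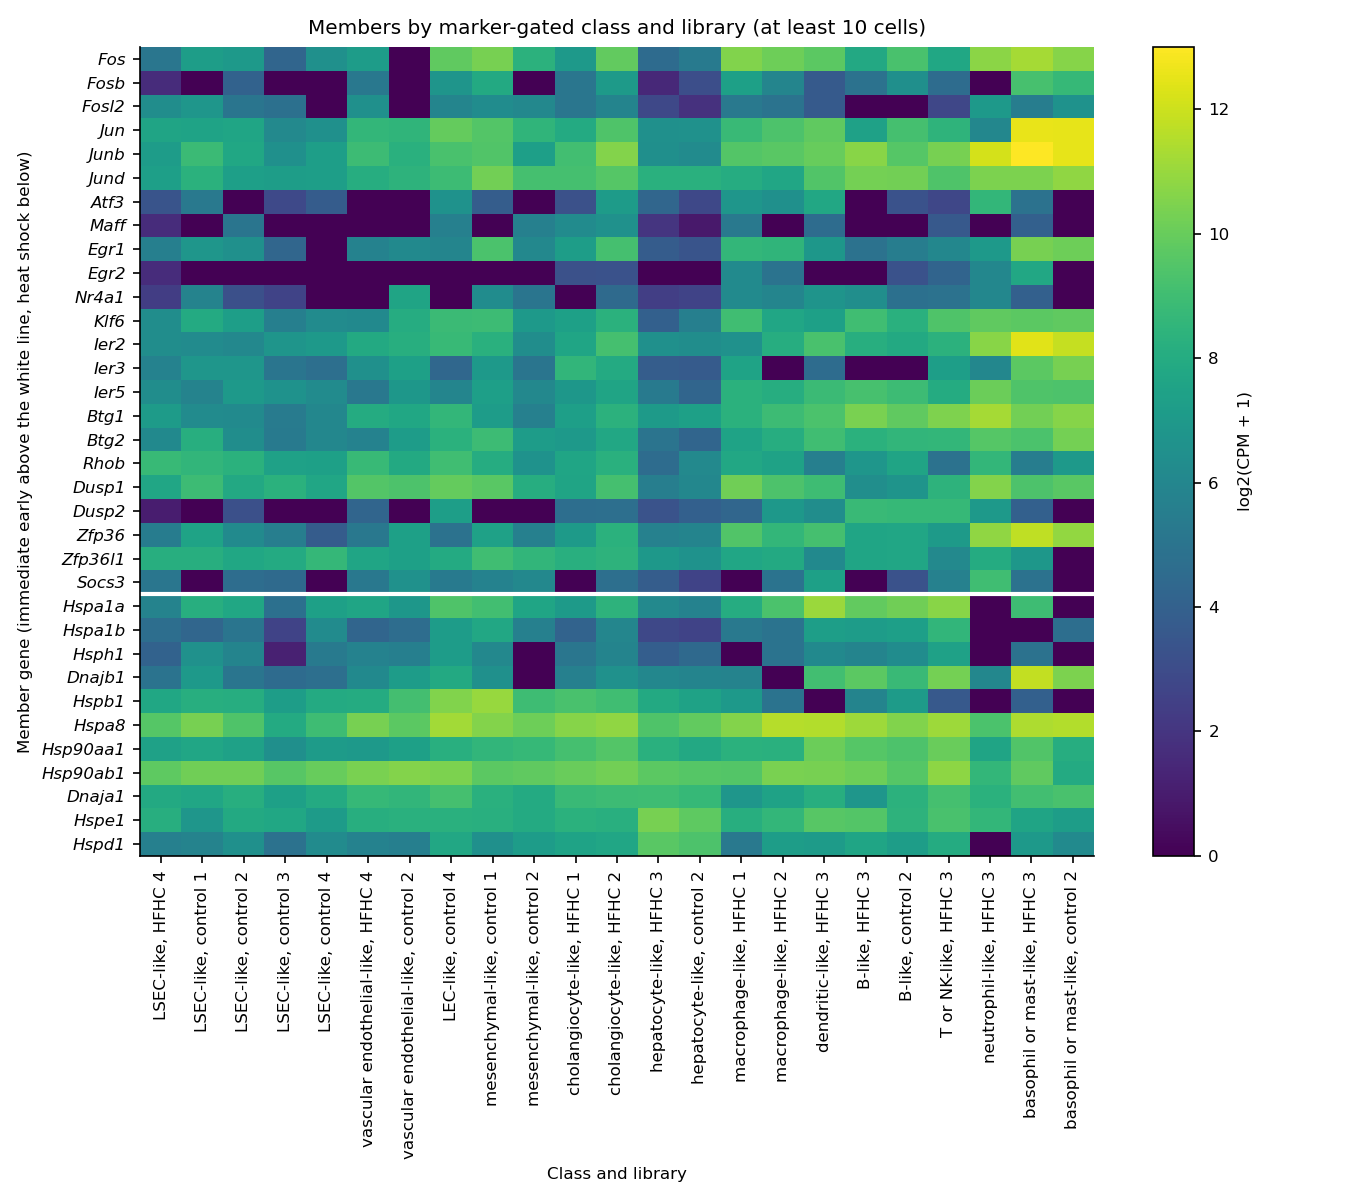
Level of each member (rows) in each class and library with at least 10 cells (columns), as log2(CPM + 1), with immediate early members above the white line. LSEC-like columns on the left are dark for most members, basophil or mast-like columns on the right are bright for Jun, Junb and Ier2, and Hspe1 and Hspd1 are brightest in the hepatocyte-like columns.

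Where one class was found in both diets, single libraries could be set side by side with exact counting intervals, which hold no spread between mice. In hepatocyte-like cells, of 32 members with at least 10 UMIs the interval of the ratio of HFHC 3 over control 2 lay above 1 for 10 and below 1 for 7, while it lay above 1 for 17.4% and below 1 for 8.08% of all such genes. Hspe1 was 1.47-fold (95% interval 1.36 to 1.59) and Hspa8 0.730-fold (0.671 to 0.795). In basophil or mast-like cells the interval of HFHC 3 over control 2 lay above 1 for 9 of 23 members and below 1 for 2, against 5.89% and 4.93% of all genes. Dnajb1 was 2.67-fold there (1.99 to 3.65). In B-like cells the interval of HFHC 3 over control 2 lay above 1 for 5 of 26 members and below 1 for 3, against 8.69% and 4.48% of all genes. In vascular endothelial-like cells the interval of HFHC 4 over control 2 lay above 1 for 1 of 18 members and below 1 for 2, against 7.41% and 5.35% of all genes. Mice of the same diet also differed: in cholangiocyte-like cells the interval of HFHC 1 over HFHC 2 lay below 1 for 12 of 30 members and above 1 for 1, against 5.18% and 4.79% of all genes. The immediate early members of those cells summed to 37.8 UMIs per 10000 in HFHC 1 and 84.0 in HFHC 2.

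LSEC-like cells, the class with at least 10 cells in the most libraries, allowed a diet comparison of 1 HFHC library with 4 control libraries. The immediate early members summed to 21.9 UMIs per 10000 in LSEC-like cells of HFHC 4, and to 36.2, 23.6, 15.5 and 17.2 in those of control 1 to 4. The heat shock members summed to 27.2 in HFHC 4, and to 38.4, 32.4, 17.4 and 26.5 in control 1 to 4. HFHC 4 lay within the range of the controls in both sums. Summed hepatocyte markers were 0.90 UMIs per 10000 in LSEC-like cells of HFHC 4 and 3.75, 11.7, 1.24 and 3.47 in those of control 1 to 4, and the median mitochondrial share was 2.54% in HFHC 4 and 5.11, 8.66, 2.35 and 3.74% in control 1 to 4. Control 1 and control 2, with the highest mitochondrial shares, also had the highest sums of members, and the part of cell quality in this was not tested.

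In that comparison edgeR called 0 of 26 members, against 0.308% of 3247 genes. DESeq2 also called 0, against 1.72% of the genes, but left 24 of the 26 without an adjusted p. The median log2 fold change of the members was -0.10, against -0.081 for all genes tested. Btg1 had 139 CPM in HFHC 4, and 75.02, 73.4, 41.6 and 64.3 in control 1 to 4, with a log2 fold change of 1.37 (SE 0.56, adjusted p = 0.377). Rhob had 437 CPM in HFHC 4, and 375, 309.7, 173 and 167 in control 1 to 4, with a log2 fold change of 0.94 (SE 0.43, adjusted p = 0.616). These were the 2 members with an unadjusted p under 0.05, against 191 of the 3247 genes. After TMM scaling, HFHC 4 lay above all 4 controls for Jun, Btg1, Rhob and Hspe1, 4 of 26 members against 15.7% of all genes. It lay below all 4 for none, against 13.4%. By unscaled CPM, Jun had 194 in HFHC 4 and 196 in control 2, so it was not above all 4 controls on that scale. Fos (33.6 CPM in HFHC 4, and 150.03, 130.4, 17.6 and 90.04 in control 1 to 4) and Hspa1a (54.6 in HFHC 4, and 281, 212, 26.5 and 167 in control 1 to 4) had log2 fold changes of -1.22 and -1.31, and neither passed. For both, HFHC 4 lay above control 3 and below the other controls.

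HFHC 4 and control 3, the largest LSEC-like samples with 952553 and 793214 UMIs, differed beyond counting error in many members. The interval of HFHC 4 over control 3 lay above 1 for 18 of 29 members with at least 10 UMIs and below 1 for 1, Dusp1, against 6.40% and 13.1% of all such genes. Hspa8 was 3.03-fold (2.58 to 3.56), Btg1 3.33-fold (2.26 to 5.04) and Dusp1 0.657-fold (0.541 to 0.796). Set beside control 4, HFHC 4 had an interval above 1 for 5 of 29 members and below 1 for 2, against 4.52% and 10.8% of genes. After TMM scaling, control 3 was the lowest of the 5 LSEC-like samples for 15 of 26 members, 9 of them among the 10 heat shock members tested. It was the lowest for 9.55% of the 3247 genes. Control 1 was the highest on the same scale for 17 of 26 members, and for 27.7% of the genes.

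Within libraries, the summed UMIs of LSEC-like cells held less of the members than those of the other cells sorted beside them. HFHC 4 and control 1 to 4 had at least 10 cells of both kinds and were compared with library as a block. By edgeR's quasi-likelihood test with Benjamini-Hochberg adjustment, 9 of 21 members were lower in LSEC-like cells and 0 higher, while 4.2% of 1882 genes were lower and 10.4% higher. DESeq2 called 10 lower, against 6.22% of genes. The median log2 difference, LSEC-like over other cells, was -1.09 for the members and -0.039 for all genes tested. All cell types found beside LSEC-like cells in a library went into the other cells. The difference therefore compares LSEC-like cells with a mixture that differed between libraries. Per cell, the median of the immediate early sum ran the other way in control 2. It was 18.1 UMIs per 10000 in LSEC-like cells and 8.003 in the other cells there. In HFHC 4, control 1, control 3 and control 4 that median was lower in LSEC-like cells. The median of the heat shock sum was lower in LSEC-like cells of each library compared.

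The called immediate early members were Fos, Jun, Junb, Ier2 and Btg1. Fos had 33.6, 150.03, 130.4, 17.6 and 90.04 CPM in LSEC-like cells of HFHC 4 and control 1 to 4, against 119, 965, 276, 23.4 and 657 in the other cells of the same libraries. It was lower in LSEC-like cells of all 5 libraries, with a log2 difference of -2.14 (SE 0.40, adjusted p = 0.00419), and in control 3 the other cells held 1 Fos UMI in 42794. Jun had 194, 188, 196, 68.1 and 90.04 CPM in LSEC-like cells, against 245, 666, 371, 234 and 1063 in the other cells (log2 difference -1.80, SE 0.44, adjusted p = 0.0187). The gap was narrow in HFHC 4 and widest in control 4. Junb fell by 1.42 (SE 0.34, adjusted p = 0.0160), Ier2 by 1.77 (SE 0.34, adjusted p = 0.00503) and Btg1 by 2.31 (SE 0.43, adjusted p = 0.00384) on the log2 scale, each lower in LSEC-like cells of all 5 libraries. Jund had a log2 difference of -1.23 and did not pass (adjusted p = 0.0550). Rhob was the 1 tested member with a positive difference, 0.41, which did not pass, and it was higher in LSEC-like cells of 4 libraries and lower in control 4.

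The called heat shock members were Hspa8, Hspa1a, Hsp90aa1 and Hspd1. Hspa8 had 756, 1294, 685, 249.6 and 502 CPM in LSEC-like cells of HFHC 4 and control 1 to 4, against 1179, 1400.2, 1126, 561 and 1843 in the other cells (log2 difference -1.09, SE 0.30, adjusted p = 0.0287). Hspa1a had 54.6, 281, 212, 26.5 and 167 CPM in LSEC-like cells, against 198, 640.3, 226, 23.4 and 484 in the other cells (log2 difference -1.27, SE 0.36, adjusted p = 0.0344). It was lower in LSEC-like cells of 4 libraries, though nearly equal in control 2 (212 against 226). In control 3 the levels were also nearly equal, and the other cells there held 1 Hspa1a UMI in 42794. Hsp90aa1, the stress-responsive cytosolic isoform related to Hsp90ab1, fell by 1.15 (SE 0.33, adjusted p = 0.0388). Hspd1 fell by 1.61 (SE 0.46, adjusted p = 0.0388), with the widest gap in control 2, whose other cells were mostly hepatocyte-like. Hspe1 (log2 difference -1.04, adjusted p = 0.0977) and Hspb1 (-1.05, adjusted p = 0.169) did not pass. In all, 9 of the 21 members were lower in LSEC-like cells of all 5 libraries after TMM scaling, against 11.3% of the 1882 genes. These differed from the 9 called members, as they included Dnaja1, which was not called, and not Hspa1a. By unscaled CPM, Dnaja1 in control 3 had 168 in LSEC-like and 164 in the other cells.

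**Figure D5:**
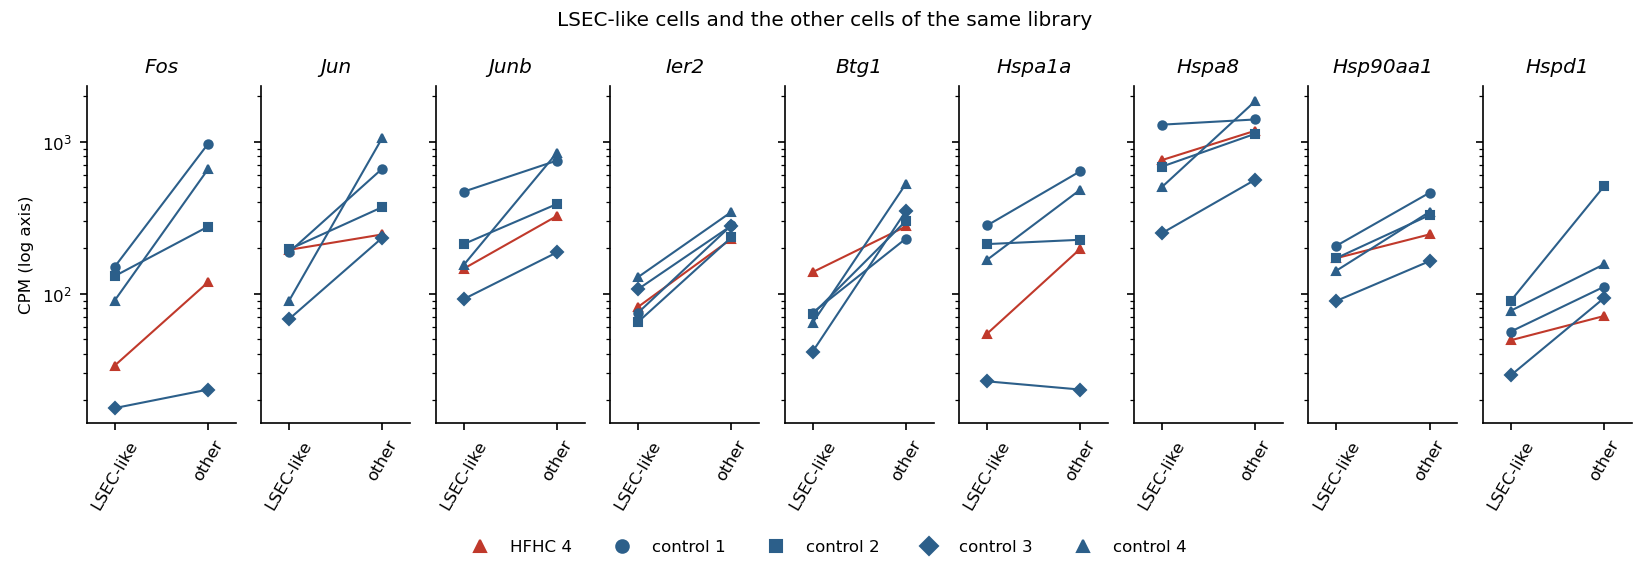
CPM (log axis) of the 9 called members in LSEC-like cells (left point) and in the other cells of the same library (right point), with 1 line per library. All lines rise to the right except that of Hspa1a in control 3, where the levels were 26.5 and 23.4.

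These calls rested on small numbers of cells in several libraries. Without control 4, 3 of the 9 were called (Fos, Ier2 and Btg1), without control 1, 5 (Fos, Junb, Ier2, Btg1 and Hspa8), and with cells of at most 5% mitochondrial UMIs, 2 (Fos and Hspa1a). That filter on cells also left control 2 out of the fit, which then held HFHC 4 and control 1, 3 and 4. Without control 2 alone, 7 members were called. With hepatocyte-like cells removed from the other cells, 14 of 22 tested members were called, among them all 9.

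Against single neighbouring classes the same direction was seen. In control 4, LSEC-like cells (38 cells) had a lower level than LEC-like cells (30 cells) beyond counting error for 23 of 26 members and a higher one for 0, against 17.3% of all genes lower. Fos had 90.04 CPM in LSEC-like and 898 in LEC-like cells of control 4, and Hspa8 had 502 in LSEC-like and 2373 in LEC-like cells. In HFHC 4, LSEC-like cells were below vascular endothelial-like cells for 9 of 28 members and above for 0, against 6.22% of all genes lower. In control 1 they were below mesenchymal-like cells for 12 of 28 members, against 17.1% of genes. Hepatocyte-like cells were the exception: in control 2, LSEC-like cells were above them for 15 of 28 members and below for 6, against 29.7% and 16.2% of genes. Hspe1 and Hspd1 were among those 6, at 0.270-fold (0.180 to 0.390) and 0.135-fold (0.0670 to 0.243).

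Genes of the same pathways that are not members gave few calls in the diet comparisons, while in LSEC-like against other cells those of the heat shock list were mostly lower. Of 40 further immediate early genes, 26 were tested in all cells, 14 in LSEC-like cells by diet and 9 in LSEC-like against other cells, and of 39 further heat shock and cochaperone genes, 34, 20 and 17. No gene of either list was called by edgeR in the diet comparisons, and DESeq2 called 1 immediate early gene, lower, in LSEC-like cells. Klf2, a flow-responsive endothelial factor, had the smallest unadjusted p of the immediate early list in LSEC-like cells by diet, with a log2 fold change of -1.36 (adjusted p = 0.132). In LSEC-like against other cells, Sgk1, a serum-induced kinase, was higher by 1.69 (adjusted p = 0.0268), and no other gene of the immediate early list passed. Of the heat shock list, Fkbp4 (-2.11, adjusted p = 0.0116), a cochaperone of cytosolic chaperone complexes, and Bag1 (-1.28, adjusted p = 0.0499), a nucleotide exchange factor, were lower in LSEC-like cells. Hsp90b1, the chaperone of the endoplasmic reticulum, was higher (1.09, adjusted p = 0.0395), while the cytosolic Hsp90aa1 was lower. By edgeR this made 2 of 17 genes lower and 1 higher, against 4.2% and 10.4% of 1882 genes. DESeq2 called 4 lower, against 6.22% of genes, and 1 higher. Of the 17, 15 had a negative difference, with a median of -0.64 against -0.039 for all genes tested. Of the 9 genes of the immediate early list, 6 were positive and 3 negative, with a median of 0.040.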

How the data were processed

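Per the labels, livers of 8 mice gave 10x Genomics libraries, 1 per mouse. The authors deposited raw UMI counts per gene and cell, made with Cell Ranger 3.0.1 and Seurat on mm10 per the submitters' processing notes; the annotation release is not given in the sources used here. All deposited cells had at least 202 genes and at most 10.0% mitochondrial UMIs.

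A barcode found in several libraries was kept where it had most UMIs. A cell's score for a class was the mean over that class's markers of log-scaled counts per 10000 UMIs, capped at the 95th percentile; it took the class with a score at least 1.5 times the next and at least 2 markers detected. Doublets were not called. Names such as LSEC-like describe transcripts only. Sums per library, or for each class of 10 or more cells in a library, were fitted over all genes in R 4.3.3 by the robust quasi-likelihood test of edgeR 4.0.16, after filterByExpr and TMM scaling. Adjusted p-values are Benjamini-Hochberg, called under 0.05. The SE was derived from the F statistic. With 1 HFHC library, the LSEC-like diet test takes its spread from the controls. Because library and mouse coincide, p-values measure the spread between these libraries. Ratios of single libraries carry exact conditional 95% intervals, which, like the limits of 3 counts beside a count of 0, cover counting error only. DESeq2 1.42.0, other filters, a stricter gate, the barcode-sharing sets and leaving out each library were alternatives.

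On simulated counts, LSEC-like cells by diet (3247 genes) returned 10% of 2-fold changes, 50% of those of 4-fold and 74% of those of 8-fold (7 false among 113 calls), and LSEC-like against other cells (1882 genes) returned 22, 84 and 74% (3 false among 129). Gene positions came from GENCODE vM21. The 34 members, the role lists and the pathway lists were chosen with earlier results of these data known, so none was fixed independently of them. Any member could be named, and of each pathway list up to 6 genes with the smallest adjusted p. Replicate numbers were checked for pairing: same-numbered libraries had correlations of deviations from their diet mean of 0.50, -0.081, -0.42 and 0.16, so the numbers were not taken to pair them.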

Additional observations from a re-analysis of the deposited data

Results flagged for a closer look

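In 6 of 72 groups of 4 libraries, 1 library stood apart from the other 3 by more than a 95% limit for gaps, and chance flags about 1 in 20 such groups. Atf3 had 217 CPM in HFHC 2, above 39.5, 39.8 and 9.27 in HFHC 1, 3 and 4. Egr1 had 364 in control 1, above 63.6, 21.5 and 54.4 in control 2, 3 and 4. Egr2 had 1.13 in control 2, which was 2 UMIs, and none in the other controls. Dusp2, a nuclear phosphatase of MAP kinases, had 7.41 in HFHC 4, below 65.8, 56.7 and 64.1 in HFHC 1 to 3.

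Hspe1 stood apart in both diets, with 1081 CPM in HFHC 3 (316, 287 and 277 in HFHC 1, 2 and 4) and 689 in control 2 (229, 215 and 225 in control 1, 3 and 4). These 2 libraries held nearly all hepatocyte-like cells, the class in which Hspe1 was highest. With hepatocyte-like cells left out, Hspe1 had 569 CPM in HFHC 3 and 342 in control 2, still the highest of their diets.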

How the results depend on the processing

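No member was called in either diet comparison under any alternative that was run, including DESeq2, no filter on low counts, other filters on cells, the barcode-sharing sets and each library left out. The log2 fold change of Fos in all cells reversed to -0.49 without HFHC 2, to -0.11 without control 3 and to -2.43 within HFHC 4, control 3 and control 4 (range with 1 library left out -0.49 to 0.69), and in LSEC-like cells it was 0.066 within those 3 libraries, an alternative chosen after seeing the data. The cause was not tested. Of LSEC-like against other cells, 2 members passed with at most 5% mitochondrial UMIs, a filter that also left control 2 out of the fit (7 passed without control 2 alone), 14 without hepatocyte-like cells, and 3 to 10 with 1 library left out. Of the 9 called members, Fos passed under all 15 alternatives, while Hsp90aa1 lost its call under 8, Hspa1a under 6 and Hspa8 under 5. With 1 library left out, HFHC minus control ran from -4.24 to 18.8 UMIs per 10000 for immediate early and from -0.23 to 14.8 for heat shock members in all cells, and from -3.75 to 3.15 and from -5.28 to 1.74 in LSEC-like cells.

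A replicate block in the fit of all cells called 0 members, and the numbers did not pair the libraries. Without the library block, 6 members passed in LSEC-like against other cells. The LSEC-like diet fit shares only number 4 between the diets, so no block was possible there, and it cannot be run without HFHC 4. Depth limits classes with few cells, in which 3 counts correspond to up to 191 CPM.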
